A study of Homo sapiens with 8 samples.

Results

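The genes described here encode the proteins of the cytosolic ribosome. They were chosen by name alone, as coding genes whose GENCODE symbol is RPL or RPS followed by a number, together with the stalk genes RPLP0, RPLP1 and RPLP2 and with RPSA. Kinases with RPS6K symbols, variants whose symbol ends in L or in L and a number, and pseudogenes were left out. The rule gave 79 symbols, of which 78 had an identifier in the count files, out of 60291 identifiers in all. Of these 78 members, 32 belong to the small subunit and 46 to the large subunit, and 77 had at least 10 reads in a library and were tested. RPS4Y2 had no identifier and was not analysed here.

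The data were strand-specific total RNA libraries, depleted of ribosomal RNA, from A549, a lung adenocarcinoma cell line. KEAP1, which normally holds the transcription factor NRF2 down, is mutated in A549, so that NRF2 is constitutively active in untreated cells of the line. Every group shares this mutation. In 3 transfections the cells received siRNA against NFE2L2, the gene that encodes NRF2, each with a different duplex. In 4 control transfections the cells received 1 of 2 control duplexes, each used for 2 replicates, and 1 mock transfection received the reagent without siRNA. Each well held 250000 cells, siRNA was given at 5 nmol, and the cells were lysed 48 h later. Each NFE2L2 duplex was sequenced once, so the spread within that group mixes the effect of the duplex sequence with the spread between transfections. Control values are given below in the order duplex 1 replicate 1, duplex 1 replicate 2, duplex 2 replicate 1 and duplex 2 replicate 2, and NFE2L2 siRNA values in the order of duplexes 1, 2 and 3.

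Nearly every ribosomal protein is present once in each ribosome, and cells make these proteins in balanced amounts. Proteins that are not built into a subunit are degraded. The messenger RNAs are short, abundant and stable, and in vertebrates most of them begin with a C followed by a run of pyrimidines, the 5′ terminal oligopyrimidine (TOP) motif. Through this motif mTORC1 and the RNA-binding protein LARP1 set how strongly the whole family is translated. The family is also the richest human source of processed pseudogenes, which makes its members hard to count with short reads.

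The start of the transcript is the sequence feature that most members share, and it is shown here for members whose values are described below. RefSeq promoter sequences (GRCh38.p14) were at hand for 63 of the 78 members. Of these, 47 (74.6%) had an annotated start at a C followed by at least 4 further pyrimidines, against 5.14% of the 27305 genes in the same table. The run of pyrimidines had a median length of 8 bases and ranged from 5 to 19. Each line gives 10 bases before the annotated start and the first 20 bases of the transcript, with the run of pyrimidines that opens the transcript in capitals.
RPS16, chr19:39435930-39435959, minus strand: ccctagctttCCTTTTCCggttgcggcgcc
RPL28, chr19:55385922-55385951, plus strand: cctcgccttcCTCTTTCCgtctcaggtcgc
RPL27A, chr11:8682782-8682811, plus strand: gaaggccttcCTTTTTCgtctgggctgcca
RPL39, chrX:119791611-119791640, minus strand: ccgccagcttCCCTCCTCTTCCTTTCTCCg
RPS3A, chr4:151099618-151099647, plus strand: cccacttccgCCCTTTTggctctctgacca
RPLP0, chr12:120201092-120201121, minus strand: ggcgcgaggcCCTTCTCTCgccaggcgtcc
RPS26, chr12:56041908-56041937, plus strand: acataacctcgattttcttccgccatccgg
RPS26 is shown as a member whose annotated start is not a C, so that no base is in capitals. The run was longest in RPL39, which encodes one of the smallest proteins of the large subunit. RPS2 and 14 other members were not in the promoter table.

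The 8 libraries held between 35525141 and 41645410 reads on genes. Reads on members numbered 1529365 to 1864725 per library. NFE2L2 itself stood at 107, 110, 113 and 117 CPM (reads per 1000000 gene reads) in the control libraries against 32.9, 52.0 and 29.7 CPM with NFE2L2 siRNA, a log2 fold change of -1.55 (SE 0.18) with a Benjamini-Hochberg adjusted p of 0.000994 in the quasi-likelihood test of edgeR. It was at 110 CPM in the mock library. The epithelial keratins KRT7, KRT8 and KRT18 were abundant, at 914 CPM or more in every library, whereas EPCAM lay between 3.56 and 10.9 CPM. The alveolar markers SFTPC, SFTPB, SFTPA1 and NKX2-1 and the markers of other cells PTPRC, CD3E and COL1A2 had at most 6 reads in any library. Other genes of these marker lists were detected. LAMP3 and ALB had at most 40 and 60 reads. ABCA3, listed as alveolar, lay between 37.96 and 66.6 CPM and COL1A1, a collagen, between 3.56 and 13.7 CPM, and both were higher with NFE2L2 siRNA, with log2 fold changes of 0.66 and 1.497 (edgeR, Benjamini-Hochberg adjusted p = 0.00274 and 0.000493). CPM were scaled by the trimmed mean of M-values (TMM), so that a level is relative to the other genes of its library. Fewer cells and less RNA per cell cannot be told apart in such libraries.

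Most members were among the abundant genes of the cell. In the control libraries 11 of the 77 tested members had a mean above 1000 CPM, 59 lay between 100 and 1000 CPM, and 7 lay below 100 CPM. The highest by CPM was RPL4, a large-subunit protein of the exit tunnel wall, at 2442 ± 156 CPM (SD, n = 4). RPS19, the small-subunit protein most often mutated in Diamond-Blackfan anaemia, followed at 1766 ± 133 CPM. Per length, which allows levels of different genes to be compared, RPS12 was highest at 794 CPM per kb of exon, and RPL8, RPS19 and RPS6 were also among the 5 highest. The order depended on the length used. With the longest transcript RPL8 led, and with the canonical transcript, a length added after the data had been seen, RPS24 led with 1918 CPM per kb of transcript. RPS28, RPL36A, RPL21 and RPS26 were among the 5 lowest with each length. RPS28, at 4.35 ± 0.67 CPM, was the lowest tested member.

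Counts of several members were limited by sequence that recurs elsewhere. Only reads with 1 place in the genome were counted, and 16.9% to 19.1% of all entries were set aside as not unique. In the median tested member, 32.8% of the 50-base words of the canonical transcript occurred elsewhere in GRCh37. In RPL21 it was 100% of the words, and reads on its 133 annotated pseudogenes made up 92.6% of the reads of gene and pseudogenes together. For RPS28 the pseudogenes held 90.8% of these reads and for RPL36A 69.1%. The 9 tested members with more than 80% of words elsewhere had a median level of 212 CPM per kb of canonical transcript, against 451 for the 30 members with less than 20%. Over all 78 members, however, the rank correlation of level with the share of words elsewhere was only -0.047, as a description across genes that share libraries. The level of such members is therefore a level of uniquely placed reads and is printed here as uncertain, while a ratio of the same member between libraries rests on the same words.

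**Figure D1:**
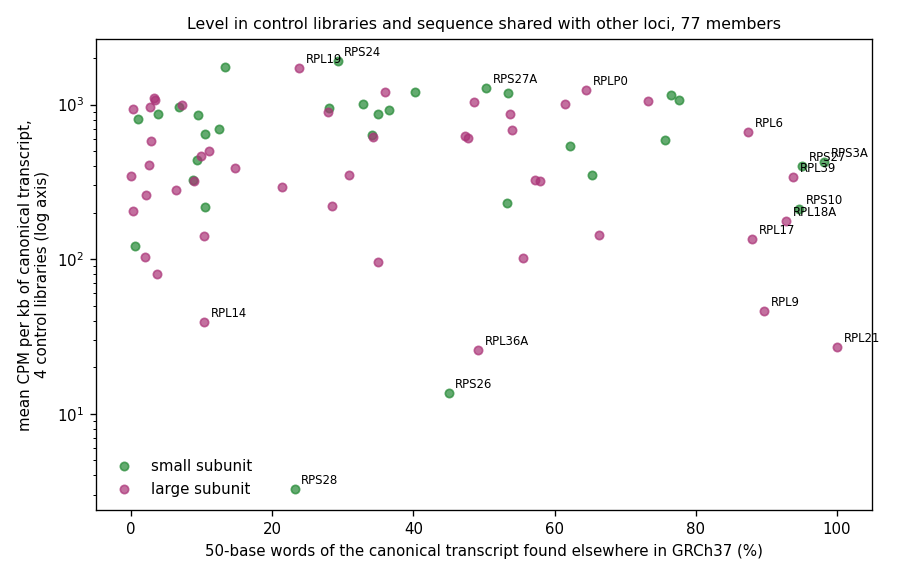
Mean level of the 77 tested members in the 4 control libraries (CPM per kb of canonical transcript, log axis) against the percentage of 50-base words of that transcript found elsewhere in GRCh37. RPS28, RPS26, RPL36A and RPL21 lie at the bottom, and RPL21 has 100% of its words elsewhere.

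The first comparison asked whether silencing of NFE2L2 altered the level of ribosomal protein messenger RNAs. No member passed the test in either direction. At an adjusted p under 0.01 the edgeR test called 0 of the 77 members higher, where 1.39% of the 17811 genes tested were called higher, and 0 lower, where 1.36% were called lower. At an unadjusted p under 0.05 there were 3 members, RPS16 and RPL28 on the higher side and RPS26 on the lower side. Of all 17811 genes tested, 2370 were on the higher side and 2087 on the lower side at this limit. DESeq2 and limma-voom each also called 0 members. The median log2 fold change of the members was -0.01, against 0.01 for all genes tested, with 42 members below 0 and 35 above.

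Departures from 0 were small among the members. The median absolute log2 fold change was 0.05 over the 77 members, against 0.16 over the 2200 genes with at least 100 CPM in the controls and 0.22 over all genes tested. An absolute log2 fold change above 0.2 was found in 7 members (9.09%), against 40.4% of the genes with at least 100 CPM. For 61 members the log2 fold change was smaller than its own standard error, which had a median of 0.11 and ranged from 0.083 to 0.263. The medians of the subunits were close, with a median log2 fold change of 0.01 for the 31 tested members of the small subunit and -0.01 for the 46 of the large subunit. The ratio of large-subunit to small-subunit reads was 1.36 ± 0.02 (SD, n = 4) in the control libraries and 1.36 ± 0.02 (SD, n = 3) in the NFE2L2 siRNA libraries.

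**Figure D2:**
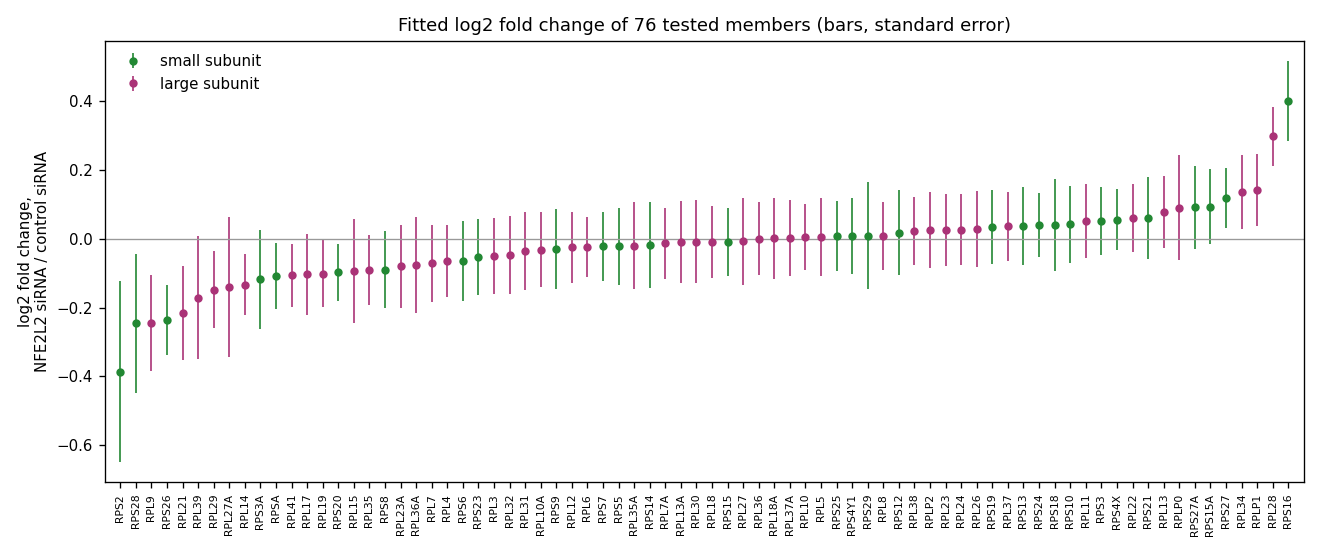
Fitted log2 fold change (NFE2L2 siRNA over control siRNA, y axis) of 76 of the 77 tested members in rising order, bars showing the standard error and colours the subunit. RPS2 at -0.39 and RPS16 at 0.40 are the ends of the row, and most error bars cross 0.

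RPS16 (ENSG00000105193.4, chr19:39923777-39926589 in GRCh37), a small-subunit protein near the decoding site, stood at 360, 385, 448 and 436 CPM in the control libraries and at 607, 468 and 538 CPM in the NFE2L2 siRNA libraries. All 3 NFE2L2 siRNA libraries lay above all 4 control libraries, but the mock library, at 485 CPM, was also above the controls and above NFE2L2 duplex 2. The log2 fold change was 0.40 (SE 0.12, edgeR, Benjamini-Hochberg adjusted p = 0.0652). The level also differed between control duplexes, as described below.

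RPL28 (ENSG00000108107.8, chr19:55897300-55914618), a large-subunit protein, stood at 433, 458, 424 and 429 CPM in the control libraries and at 506, 584 and 518 CPM in the NFE2L2 siRNA libraries. The groups did not overlap, and the mock library, at 442 CPM, lay within the control range. The log2 fold change was 0.30 (SE 0.09, edgeR, Benjamini-Hochberg adjusted p = 0.0648). RPL28 shares only 2.00% of its 50-base words with other loci.

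RPS26 (ENSG00000197728.5, chr12:56435135-56438481), which lies at the messenger RNA exit of the small subunit, stood at 15.4, 16.01, 15.03 and 15.8 CPM in the control libraries and at 14.2, 13.1 and 12.4 CPM in the NFE2L2 siRNA libraries. All 3 lay below the control range, and the mock library was at 16.1 CPM. The log2 fold change was -0.24 (SE 0.10, edgeR, Benjamini-Hochberg adjusted p = 0.183). These were the only members whose groups were fully separated, 2 above the controls, where 11.9% of all genes tested were, and 1 below, where 11.4% were. The difference from these shares was not tested. For each of the 3 the exact permutation p, without a set direction, was 0.0571, the smallest that 35 divisions of 7 libraries can give in these data.

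Apart from RPS26, at -0.24 (SE 0.10), the lower end of the list was held by members with standard errors above the median of the family. RPS2 had a log2 fold change of -0.39 (SE 0.26), RPS28 of -0.25 (SE 0.20), RPL9 of -0.24 (SE 0.14), RPL21 of -0.22 (SE 0.14) and RPL39 of -0.17 (SE 0.18), none past the test. RPLP1 at 0.14, RPL34 at 0.14, RPS27 at 0.12 and RPS15A at 0.09 followed RPS16 and RPL28 on the higher side, with adjusted p-values of 0.435 to 0.644 in edgeR and standard errors of 0.09 to 0.11. RPS28, RPL21 and RPL39 are among the members with much of their sequence or reads shared with pseudogenes, and with pseudogene reads added the log2 fold change of RPS28 was 0.00 and that of RPL21 -0.03. Single libraries weighed on several of these values. Without NFE2L2 duplex 1 the log2 fold change of RPL34 was 0.02, that of RPL9 -0.43 and that of RPL21 -0.37, and without duplex 3 those of RPL9 and RPL21 were -0.14 and -0.09.

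Beneath this average the members differed together from library to library. The share of gene reads that fell on members was 4.21%, 4.65%, 4.14% and 4.46% in the control libraries, 4.97%, 4.14% and 4.20% with NFE2L2 siRNA, and 4.72% in the mock library. The NFE2L2 siRNA libraries therefore held both the highest share, with duplex 1, and 2 shares at the low end of the control range. The group means were 4.44 ± 0.46% (SD, n = 3) and 4.37 ± 0.24% (SD, n = 4), a difference within the spread of either group.

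Taken gene by gene, the median log2 ratio of the 77 members to their own control mean was 0.21 with NFE2L2 duplex 1, -0.13 with duplex 2 and -0.12 with duplex 3. With duplex 1, 72 members lay above their control mean, whereas with duplexes 2 and 3, 71 and 67 lay below. The same median over the 9711 genes of at least 10 CPM stayed between -0.04 and 0.02 in all 8 libraries. Duplex 1 was the highest of the 7 siRNA libraries for 63 members, and duplex 2 or 3 was the lowest for 63. Leaving out duplex 1 moved the median fitted log2 fold change from -0.01 to -0.13, with still 0 members past the test.

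The control libraries showed the same pattern at a smaller size. The median log2 ratio was -0.01 and 0.10 in the 2 replicates of control duplex 1, -0.08 and -0.00 in those of control duplex 2, and 0.08 in the mock library. Control duplex 1 replicate 2 was the highest of the 4 controls for 70 members and control duplex 2 replicate 1 the lowest for 62. The whole family thus differed between 2 replicates of 1 control duplex by a median near 0.1 on the log2 scale. Across members, the coefficient of variation had a median of 6.06% over the control libraries and 14.4% over the NFE2L2 siRNA libraries, and it was larger in the NFE2L2 siRNA libraries for 74 of the 77 members. The log2 ratios of all genes were also more widely spread in the NFE2L2 siRNA libraries, as given below. The share of all entries that fell on genes was 60.3% with NFE2L2 duplex 1, below the 62.2% to 65.6% of the control libraries, and its part in the family's level was not tested.

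**Figure D3:**
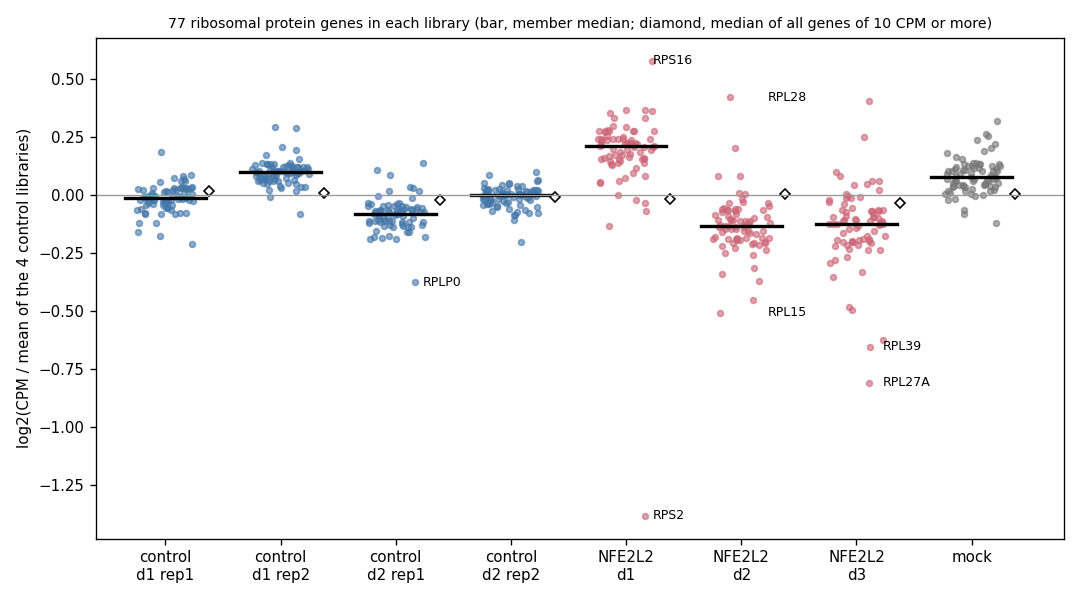
Log2 ratio of CPM to the mean of the 4 control libraries (y axis) for each of the 77 tested members (points) in each library, with the member median as a bar and the median of all genes of at least 10 CPM as a diamond. The bar lies at 0.21 with NFE2L2 duplex 1 and at -0.13 and -0.12 with duplexes 2 and 3, while every diamond lies close to 0, and RPS2 is far below the other members with duplex 1.

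Against this common movement a few members departed most strongly in 1 library. Around the library's own median, the SD of the 77 log2 ratios was 0.046 to 0.072 in the control libraries, 0.075 in the mock library and 0.208, 0.124 and 0.175 in the NFE2L2 siRNA libraries. The value for duplex 1 rests largely on RPS2, whose log2 ratio less that median was -1.59. The median absolute distance from the library's median, over the 76 members of at least 10 CPM, was 0.054, 0.055 and 0.073 with duplexes 1, 2 and 3, against 0.023 to 0.034 in the control libraries. Each control library is part of the mean it was compared with, which narrows its spread. Over the 9711 genes of at least 10 CPM the log2 ratios were also wider with NFE2L2 siRNA. Their quartiles were -0.25 and 0.19, -0.18 and 0.17, and -0.25 and 0.18 with duplexes 1, 2 and 3. In the control libraries the lower quartile was -0.09 to -0.06 and the upper 0.05 to 0.08. With a limit of 1.5-fold from the control mean, among the 76 members of at least 10 CPM, 1 was lower with NFE2L2 duplex 1, 0 with duplex 2 and 2 with duplex 3. Over all genes of at least 10 CPM, which are not matched to the members in level, the shares were 9.61%, 5.4% and 7.83%, and the difference was not tested. No member passed it on the higher side in any NFE2L2 siRNA library, where 4.35%, 3.49% and 4.73% of all such genes did. In each control library, compared with the mean of the other 3, and in the mock library, 0 members passed it in either direction. Few genes of any kind did so there. The shares were 0.06% to 0.79% per direction in the control libraries, and 1.09% lower and 0.24% higher in the mock library. Since each NFE2L2 duplex has 1 library, these are differences between libraries, without a test.

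The largest departure was RPS2 (ENSG00000140988.11, chr16:2012059-2014842), a core protein of the small subunit at the messenger RNA entry. RPS2 stood at 1027, 1077, 936 and 1010 CPM in the control libraries, at 389, 930 and 1005 CPM in the NFE2L2 siRNA libraries and at 1104 CPM in the mock library. Only the library of NFE2L2 duplex 1 was low, at 2.60-fold below the control mean, in a library where 72 members lay above theirs. The count was 13905 reads against 34616 to 40042 in the controls, so that counting error is small beside the difference. Of the 50-base words of RPS2, 77.7% occur elsewhere, and the reads on its 25 annotated pseudogenes departed with it, at 110 CPM in that library against 315, 325, 272 and 308 CPM in the controls, which is 2.76-fold lower. Reads of gene and pseudogenes cannot be fully told apart here. Without duplex 1 the log2 fold change of RPS2 was -0.07 in place of -0.39.

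With NFE2L2 duplex 3 the departing members were RPL27A and RPL39, both of the large subunit. RPL27A (ENSG00000166441.8, chr11:8704335-8736306) stood at 649, 671, 617 and 623 CPM in the control libraries, at 784, 593 and 366 CPM in the NFE2L2 siRNA libraries and at 659 CPM in the mock library. Duplex 3 was farthest from the control mean, at 1.75-fold below it, and RPL27A has 10.4% of its words elsewhere and at most 1 read on its pseudogenes.

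RPL39 (ENSG00000198918.7, chrX:118920467-118925593) stood at 132, 152, 123 and 125 CPM in the control libraries, at 155, 115 and 84.6 CPM in the NFE2L2 siRNA libraries and at 126 CPM in the mock library. Duplex 3 was again the low library, at 1.57-fold below the control mean, while duplex 1 was the highest of all, and without duplex 3 the fitted log2 fold change was 0.02 in place of -0.17. RPL39 has 93.8% of its words elsewhere.

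With NFE2L2 duplex 2 the members farthest below were RPL15 and RPS3A, neither of which reached 1.5-fold. RPL15, at 753, 783, 717 and 777 CPM in the control libraries, stood at 892, 533 and 705 CPM in the NFE2L2 siRNA libraries. This was 1.42-fold below the control mean with duplex 2. RPS3A, at 360, 394, 348 and 383 CPM in the controls, stood at 431, 271 and 324 CPM, which was 1.37-fold below with duplex 2. RPL27A, RPL15, RPS3A and the library limit were chosen for description after the values had been seen. A different member was thus lowest with each duplex, RPS2 with the first, RPL15 with the second and RPL27A with the third.

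**Figure D4:**
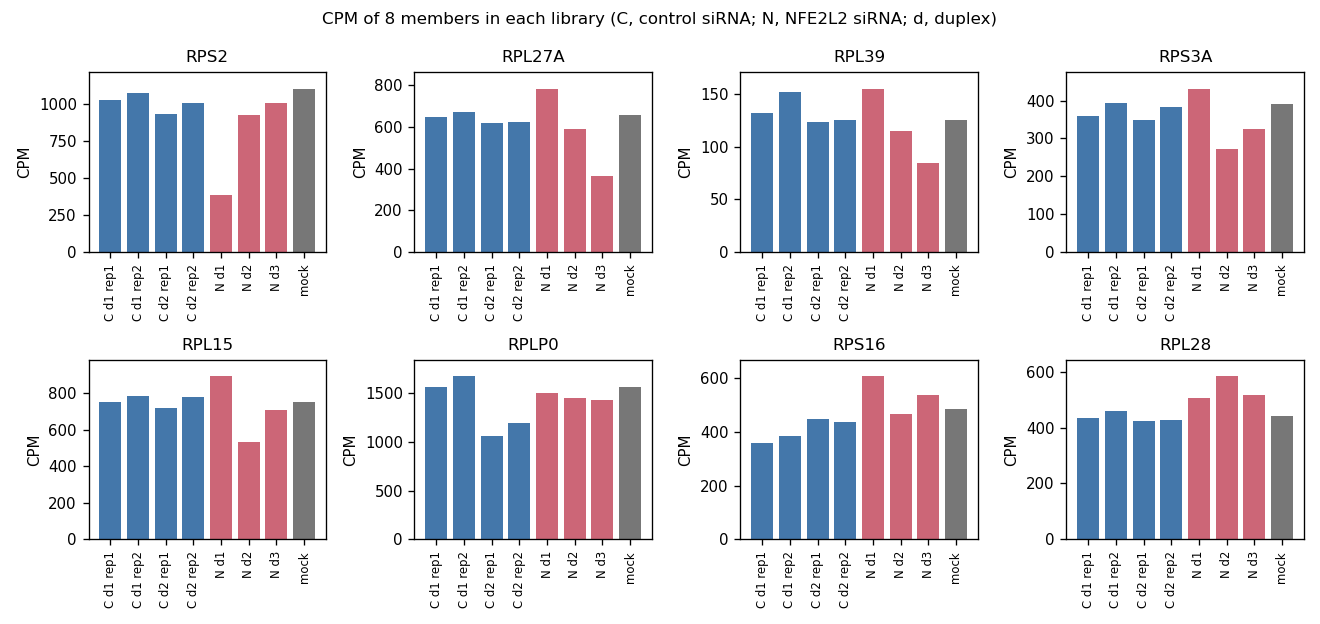
CPM (y axis, from 0) of 8 members in each of the 8 libraries, with control siRNA libraries in blue, NFE2L2 siRNA libraries in red and the mock library in grey. RPS2 is low in the library of NFE2L2 duplex 1 alone. RPL27A and RPL39 are lowest in that of duplex 3, RPL15 and RPS3A in that of duplex 2, and RPLP0 in both libraries of control duplex 2.

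Members with well-known roles outside or inside the ribosome were also read library by library. RPL5 and RPL11, which with 5S RNA can bind MDM2 and so stabilise p53, stood at 602, 678, 604 and 657 CPM and at 576, 629, 569 and 603 CPM in the control libraries. In the NFE2L2 siRNA libraries RPL5 was at 751, 574 and 588 CPM and RPL11 at 719, 560 and 568 CPM. Both were highest with duplex 1 and lower with duplexes 2 and 3, and the log2 fold changes were 0.01 (SE 0.11) and 0.05 (SE 0.11).

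RPS6, the substrate of the S6 kinases, was at 1144, 1284, 1106 and 1177 CPM in the controls and at 1338, 1038 and 1003 CPM with NFE2L2 siRNA, again highest with duplex 1. RPS27A, made as a fusion with ubiquitin, was at 918, 1011, 1020 and 1044 CPM and at 1287, 957 and 946 CPM. RPSA, which is also known as a laminin receptor, was at 654, 735, 618 and 672 CPM and at 653, 644 and 569 CPM, and so did not share the higher level of the family with duplex 1. For these members the log2 fold changes lay between -0.11 for RPSA and 0.09 for RPS27A, with standard errors of 0.12 for RPS6 and RPS27A and 0.10 for RPSA.

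RPS14, which is haploinsufficient in the 5q deletion syndrome, had a log2 fold change of -0.02 (SE 0.12), RPS19 of 0.03 (SE 0.11) and RPS3, which also has a role in DNA repair, of 0.05 (SE 0.10). RPS4X had a log2 fold change of 0.06 (SE 0.09). RPL10, a protein near the peptidyl transferase centre, had a log2 fold change of 0.00 (SE 0.10), and RPL41, the smallest member, of -0.11 (SE 0.09). RPL41 stood at 69.8, 71.7, 64.3 and 68.8 CPM in the controls and at 68.7, 58.3 and 64.4 CPM with NFE2L2 siRNA, so that it was not raised above the controls with duplex 1. None of these passed the edgeR test, where the smallest Benjamini-Hochberg adjusted p among them was 0.517 for RPL41.

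The stalk proteins RPLP0, RPLP1 and RPLP2 recruit translation factors to the large subunit. RPLP1 was at 506, 637, 593 and 607 CPM in the controls and at 709, 620 and 611 CPM with NFE2L2 siRNA. RPLP2 was at 422, 470, 412 and 421 CPM and at 512, 403 and 402 CPM. For both, duplex 1 was the highest of the siRNA libraries, and the ranges of the groups overlapped.

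RPLP0 was the only member past the test in the comparison of the 2 control duplexes, which asks how far 2 siRNAs that do not target NFE2L2 differ. RPLP0 (ENSG00000089157.11, chr12:120634502-120639038) stood at 1557 and 1673 CPM with control duplex 1 and at 1055 and 1190 CPM with control duplex 2. The log2 fold change of duplex 2 over duplex 1 was -0.52 (edgeR, Benjamini-Hochberg adjusted p = 0.00464). The NFE2L2 siRNA libraries, at 1496, 1450 and 1425 CPM, lay between the control duplexes, and the mock library, at 1561 CPM, lay with control duplex 1. The 12 annotated pseudogenes of RPLP0 took 78.3 and 86.3 CPM with duplex 1 and 53.5 and 59.7 CPM with duplex 2, a fold of 1.45 beside 1.44 for the gene. Without either library of control duplex 2 the call was lost, with adjusted p-values of 0.359 and 0.219 and 1 library left in that arm, while the log2 fold change was -0.43 and -0.61. With genes of a single read kept it was -0.52 with an adjusted p of 0.0760.

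RPLP0 was thus 1 of 77 members lower with control duplex 2, where 1.51% of the 17261 genes tested were lower, and 0 members were higher, where 1.77% were higher. At an unadjusted p under 0.05, 9 of 77 members were lower and 1 was higher, where 2314 and 2180 of all 17261 genes tested were. DESeq2 called 1 member higher, RPS16, and the share of all genes that it called is not given here. The median log2 fold change of the members was -0.08, against 0.01 for all genes tested, and 69 of 77 lay below 0. The absolute value was below 0.2 in 72 members. RPS16 lay on the other side of 0 at 0.25 (adjusted p = 0.0398 in edgeR), followed by RPL36A and RPL34 at 0.13 and RPS27A at 0.10. After RPLP0, the lowest values were -0.26 for RPS28, -0.23 for RPS29 and -0.21 for RPL23A. RPLP0 is often used to normalise RNA levels between samples, and in these libraries its standard deviation was 21.4% of its mean over the 4 controls, against a median of 6.06% over the members.

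Related genes were described from lists of ribosomal and translation genes, whose members were chosen with earlier results of these data known. In the NFE2L2 comparison 0 genes of every list passed the edgeR test in either direction, and their median log2 fold changes can be set beside -0.01 for the cytosolic ribosomal proteins. It was -0.18 for 75 mitochondrial ribosomal proteins, of which 66 lay below 0 and 25 had an unadjusted p under 0.05 on the lower side. Between the control duplexes the same list had a median of -0.11, with 64 below 0 and 27 at an unadjusted p under 0.05 on the lower side. In the NFE2L2 comparison it was -0.23 for 56 ribosome biogenesis factors, of which 52 lay below 0 and 25 had an unadjusted p under 0.05 on the lower side, and between the control duplexes it was -0.09, with 41 below 0 and 15 at such a p. Both lists thus lay mostly below 0 in each comparison, and the comparisons share the control libraries. Over all genes tested, 2314 of 17261 had an unadjusted p under 0.05 on the lower side between the control duplexes. In the NFE2L2 comparison it was 2087 of 17811. For the 15 subunits and factors of RNA polymerase I, which transcribes the ribosomal RNA precursor, the median was -0.17, and for 37 translation factors it was -0.07. An unadjusted p under 0.05 was found on the lower side for 5 of the RNA polymerase I genes and 4 of the translation factors, and on the higher side for 0 and 2. DESeq2, which called 0 cytosolic ribosomal proteins, called 7 biogenesis factors, 3 mitochondrial ribosomal proteins, 2 genes of mTORC1 and TOP control and 1 paralog, RPL39L, lower and 0 genes of these lists higher. limma-voom called 1, BYSL, lower. The shares of all genes that DESeq2 and limma-voom called are not given here, so these counts cannot be read as a result about the lists.

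Single genes of these lists came close to the threshold, and those named here were chosen after their values had been seen. BYSL, a factor of small-subunit assembly, stood at 38.5, 40.7, 38.6 and 38.2 CPM in the controls and at 27.4, 28.2 and 22.6 CPM with NFE2L2 siRNA, with a log2 fold change of -0.58 (SE 0.11, edgeR, adjusted p = 0.0100022, so just outside the limit). NPM1, an abundant nucleolar chaperone, stood at 1353, 1474, 1253 and 1368 CPM and at 860, 916 and 1076 CPM, with a log2 fold change of -0.52 (SE 0.11, adjusted p = 0.0167). In both, the groups did not overlap. Among the cytosolic ribosomal proteins RPS26 alone lay below the controls with all 3 duplexes.

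For 20 genes of mTORC1 and of TOP messenger RNA control the median was -0.03. FAU and RACK1, ribosomal proteins with other symbols, had log2 fold changes of -0.16 and -0.11. Of 8 paralogs whose symbol ends in L, or in L and a number, 6 were tested, with a median of -0.11. RPL39L was lowest of these at -0.66 (edgeR, adjusted p = 0.0408). Between the control duplexes, genes of the same lists did pass the test: 3 biogenesis factors, 2 translation factors, 2 genes of mTORC1 and TOP control and the paralog RPL22L1, at 0.47, were higher with duplex 2, and 1 biogenesis factor and 1 gene of mTORC1 and TOP control were lower.

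**Figure D5:**
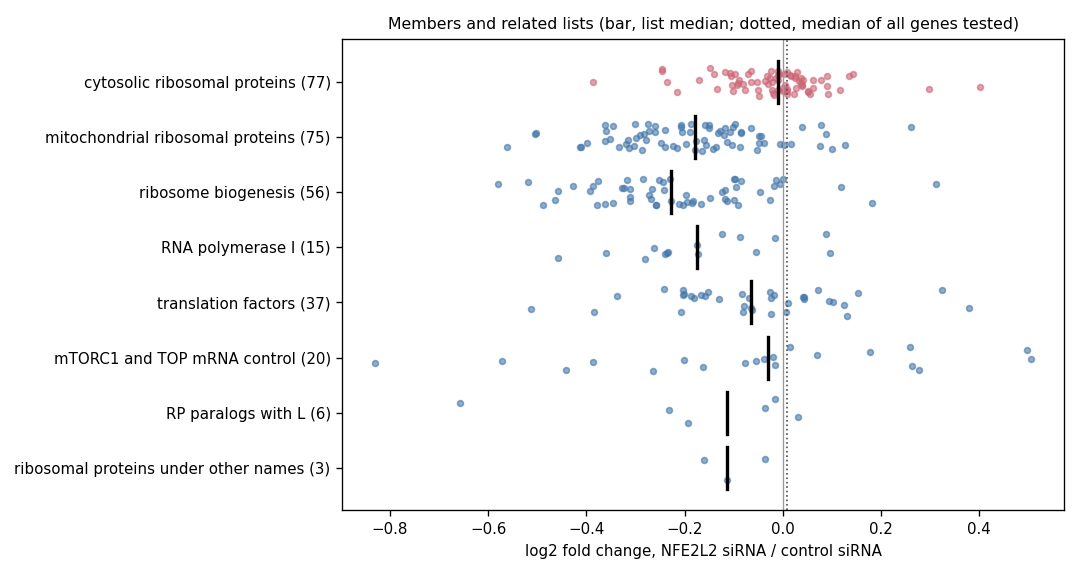
Log2 fold change (NFE2L2 siRNA over control siRNA, x axis) of each tested gene in the cytosolic ribosomal protein set and in 7 related lists, with the number tested in brackets, a bar at each list's median and a dotted line at the median of all genes tested. The cytosolic set is centred at -0.01, and the mitochondrial and biogenesis lists at -0.18 and -0.23.

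Features of the promoters were set beside these values. The core of the antioxidant response element, the DNA motif that NRF2 binds, was searched as TGACNNNGC on both strands of the 300 bases around each start, 250 before and 50 after. It occurred in 8 of the 63 members (12.7%), against 16.1% of all 27305 genes, the members being RPL10, RPL13, RPL32, RPL39, RPS15, RPS19, RPS24 and RPS25. Their log2 fold changes after NFE2L2 siRNA ranged from -0.17 to 0.08 with a median of 0.01, and the other members with a promoter had a median of -0.01. Members with a pyrimidine start had a median of 0.01 and the 16 without one a median of -0.05. A match of letters is no evidence of binding.

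In their place in the genome the members share little. They lie on 22 chromosomes, with 12 on chromosome 19 and 4 on X. In 29 members the annotation places small nucleolar RNAs, 60 in all, inside the gene on the same strand. Such RNAs guide the modification of ribosomal RNA and are released from introns of the host transcript.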

How the data were processed

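The authors aligned the reads to hg19 with HISAT 0.1.6 and counted them per gene with HTSeq 0.6.0, requiring the reverse strand, and deposited whole-number counts per GENCODE gene identifier for each of the 8 libraries. Reads with more than 1 place are not counted, which lowers genes with pseudogene copies, and rows that name no gene were left out of library sizes. Symbols, positions and pseudogenes came from GENCODE v44 lifted to GRCh37, which holds 55538 of the identifiers. Genes with at least 10 reads in 1 or more libraries were tested with the quasi-likelihood test of edgeR 4.0.16 (R 4.3.3), with TMM factors and Benjamini-Hochberg adjustment over all genes tested, at an adjusted p under 0.01. NFE2L2 siRNA (n = 3) was compared with control siRNA (n = 4), and control duplex 2 with control duplex 1 (n = 2 each). The mock library entered no main test. DESeq2 1.42.0 and limma-voom (limma 3.58.1) were alternatives, with other filters, scalings, control sets, pseudogene reads added and each library left out. The tests were checked on simulated data. The replicates are separate transfections of 1 cell line, and the test counts them as independent. The 4 controls are, however, 2 replicates of each of 2 duplexes, and each NFE2L2 library has its own duplex. In the NFE2L2 comparison the p-values thus mix spread between duplexes with spread between transfections. With the controls summed by duplex, the adjusted p in edgeR was 0.311 for RPS16 and 0.364 for RPL28. A count below 3 reads was taken as the floor of detection. Counting error at more than 1000 reads, held by 73 members in every library, is far below the spread between libraries.

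Genes named were members past the threshold, the 6 highest and 6 lowest log2 fold changes after NFE2L2 siRNA and the 4 highest and 4 lowest between control duplexes, the 5 highest and lowest per kb, members with known roles fixed by name, and NFE2L2. Other names are said to have been chosen after their values were seen. Values of a few single genes are not reported here. The members and lists were chosen with earlier results of these data known.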

Additional observations from a re-analysis of the deposited data

Results flagged for a closer look

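RPLP2 was the 1 member of 77 in which a control library lay apart from the other 3 by Dixon's criterion. Control duplex 1 replicate 2 stood at 470 CPM and the others at 412 to 422 CPM, so that the gap was 0.837 of the range of the 4 values. Chance would place about 1 in 20 groups past that limit, and that library was also the highest control for 70 members.

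In the mock library, which entered no main comparison, the members took 4.72% of gene reads, above the highest control library at 4.65% and below NFE2L2 duplex 1 at 4.97%.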

How the results depend on the processing

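In the NFE2L2 comparison 0 members were higher and 0 lower under every alternative run, including DESeq2, limma-voom and a threshold of 0.05. In the related lists, by contrast, DESeq2 called genes that edgeR did not. The median log2 fold change ranged from -0.13 without NFE2L2 duplex 1 to 0.047 without duplex 3, and its sign changed with several settings since it lay near 0. For RPS16 the adjusted p ranged from 0.0268 to 0.404 and for RPL28 from 0.0288 to 0.364. The log2 fold change changed sign for RPS28 with pseudogene reads added (0.00028), for RPS15A without NFE2L2 duplex 1 (-0.042, up to 0.16 without duplex 2) and for RPL39 without duplex 3 (0.022, down to -0.41 without duplex 1). The difference in the share of reads on members was 0.0727 percentage points, -0.0610 with all entries as the denominator, and -0.194 to 0.220 with 1 library left out.

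Between the control duplexes, members lower numbered 1, with 0 when genes of a single read were kept and 0 to 3 with 1 library left out. Members higher numbered 0, with 1 (RPS16) by DESeq2 or at a threshold of 0.05 and 0 to 1 with 1 library left out. RPL36A changed sign with pseudogene reads added (-0.016). With the replicate number as a block, 1 member was higher and 9 were lower. The shares of all genes called with the block, or in the other alternative fits, are not given here. These counts are therefore no result about the members alone. Replicates with the same number correlated at 0.464 over 9711 genes, but there are only 2 pairs and the labels do not say that a number marks a shared day, so the fit without the block was kept. For the NFE2L2 comparison no paired analysis was possible because its libraries are separate duplexes. Differences of the size of a member's standard error, 0.083 to 0.263 on the log2 scale, were not detectable with 3 against 4 libraries. Differences well above the standard error also fell short of the threshold, as for RPS16 at 0.40 (SE 0.12) and RPL28 at 0.30 (SE 0.09).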
